A study of Mus musculus with 15 samples.

Results

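The Zfp36 family of mRNA decay factors was followed at the RNA level through the switching on and off of ERK signalling in mouse epiblast-like cells (EpiLCs). The 3 members, Zfp36, Zfp36l1 and Zfp36l2, were defined by membership of the gene family and taken from the raw count table by their Ensembl gene identifiers. They make 3 of the 52636 rows of the table, and all 3 passed the filter on low counts that left 13451 genes for testing.

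The cells were CRAFR26, a line in which a c-RAF kinase construct is activated by 4-hydroxytamoxifen (4OHT), a ligand used to switch such constructs on. Embryonic stem cells were passed through a state named RSC in the labels and then kept for 48 h in EpiLC medium with 12 ng/ml bFGF, 20 ng/ml Activin A and 1 µM XAV939. In all 4 groups the labels list 2 h with 250 nM PD17 (PD173074, an FGF receptor inhibitor), the 0h group included. The 0h group (3 samples) had no 4OHT, the 2h group (4 samples) had 250 nM 4OHT for 2 h, and the 4h group (4 samples) had it for 4 h. In the rev group (4 samples) a MEK inhibitor, which blocks the kinase directly above ERK, acted for 2 h in addition to the 4 h of 4OHT. Samples came from 2 clones, clone 4 (7 samples) and clone 8 (8 samples), and the 0h group held 1 sample of clone 4. No group was kept without 4OHT for the length of the experiment, so induction and time after the start cannot be told apart. Nor did any group have the time of rev without the MEK inhibitor, so inhibitor and added time cannot be told apart. The labels do not say whether repeat samples of a clone were separate cultures, so p-values measure the spread between these samples, which may be technical in part.

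ZFP36 proteins, of which ZFP36 itself is known as tristetraprolin, carry a tandem pair of CCCH zinc fingers that bind AU-rich elements in the 3′ untranslated region (UTR) of mRNAs. They recruit the CCR4-NOT deadenylase, which shortens the poly(A) tail, and the mRNA is then decapped and degraded. The proteins are themselves phosphorylated, among others by the kinase MK2 downstream of p38, and are then bound by 14-3-3 proteins. Zfp36 is a textbook immediate early gene, induced by growth factors through ERK and serum response factor. Zfp36l1 is required for development of the mouse embryo, and Zfp36l2 for blood stem cells and female fertility.

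Sequence windows of the members are shown for letter matches of both kinds. These are matches to motifs searched for ERK-responsive factors near the transcript start, and to the AU-rich element that the family itself binds. RefSeq promoter windows (GRCm38.p6, 250 bases before to 50 after the start) were present for 2 of the 3 members. Both strands were searched for the CArG box (the serum response factor motif), AP-1 (spelled TGANTCA), CRE (spelled TGACGTCA), EGR (spelled GCGTGGGCG or, in a second form, GCGGGGGCG), ETS (spelled CCGGAAGT) and the TATA box (spelled TATAAA). The Zfp36 window held 1 CArG box, starting 58 bases before the RefSeq start, and 1 EGR match to GCGGGGGCG, 105 bases before it. The Zfp36l1 window held 1 AP-1 match (TGATTCA, with T at the free position N), 129 bases before the start, and 1 TATA match, 29 bases before it. No match overlapped another. Capitals mark the motif:
Zfp36 CArG box: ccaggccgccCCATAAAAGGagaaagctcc
Zfp36 EGR: gagctacgccGCGGGGGCGcgtcccggaag
Zfp36l1 AP-1: gaccgcatggcTGATTCAacctcagtgtca
Zfp36l1 TATA: cccaccaaatctTATAAAttgggctttgcg

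All 4 windows read 5′ to 3′ on the minus strand. The Zfp36 windows lie at chr7:28379267-28379296 and chr7:28379314-28379343, within the exonic bases that GENCODE M21 annotates for Zfp36. The Zfp36l1 windows lie at chr12:80113124-80113153 and chr12:80113025-80113054, upstream of the gene. Of 32851 promoters of the same length, a CArG box was present in 1.63%, AP-1 in 7.81%, CRE in 1.79%, GCGTGGGCG in 0.61%, GCGGGGGCG in 2.91%, ETS in 3.89% and TATA in 13.62%. A match is a description of the letters, not evidence of binding.

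The AU-rich heptamer TATTTAT, with U for T in the RNA and the core of the family's own binding site, occurred 3 times in the 3′ UTR of each member, once within the longer form TTATTTATT. UTRs of similar length held at least 1 heptamer in 19.4% of cases for Zfp36, 38.2% for Zfp36l1 and 38.1% for Zfp36l2. The copy within the longer form is shown for each member, with the heptamer in capitals and, in Zfp36, the last bases of the preceding heptamer also in capitals:
Zfp36 AU-rich element: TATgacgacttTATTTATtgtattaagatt
Zfp36l1 AU-rich element: aactgttggatTATTTATtttagaaattct
Zfp36l2 AU-rich element: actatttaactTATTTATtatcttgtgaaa

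These windows (GRCm38, minus strand) lie at chr7:28376950-28376979, chr12:80108166-80108195 and chr17:84184913-84184942.

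Library depth differed between groups. The 4h libraries held 1552022 to 6658950 counts and the others 8667880 to 13004556, and mitochondrial genes took 7.21 to 12.4% of counts at 4h against 2.67 to 6.98% elsewhere. The 20 most abundant genes took 65.4 to 79.3% at 4h and 51.1 to 73.3% elsewhere. Levels are therefore given as CPM, the count of a gene relative to the size of its library, with that size adjusted by the TMM method. Induction showed in Spry4, Dusp6 and Egr1, standard readouts of ERK: Dusp6 stood at 3.35 ± 1.00 CPM (SD, n = 3) at 0h and 152 ± 28.3 (n = 4) at 2h, and Egr1 went from 1.97 ± 1.18 to 599 ± 267. All 6 EpiLC markers (Fgf5, Otx2, Dnmt3b, Pou3f1, Pou5f1 and Sox2) averaged at least 1 CPM in every group. At 4h, however, their summed level was 681 to 761 CPM, against 949 to 1399 in all other samples. Dnmt3b made up most of this sum (935 ± 109 CPM at 0h and 416 ± 17.9 at 4h), whereas Otx2 stood at 12.3 ± 2.98 and 25.1 ± 9.58 CPM. The 6 naive stem cell markers, none of them at 0 in any group, summed to 41.0 to 161 CPM at 4h, against 17.6 to 29.5 elsewhere. Among them Esrrb stood at 3.29 ± 0.908 CPM at 0h and 42.9 ± 36.6 at 4h, while the mean of Klf4 at 4h (2.57 ± 0.549) was within the range of its 2h and rev samples. The part of depth, mitochondrial share and these markers in the 4h results below was not tested. In bulk RNA, fewer cells with a transcript and less transcript per cell cannot be told apart.

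Zfp36, the immediate early member, rose in every sample at 2h and was back near its starting level at 4h. At 0h it stood at 3.08 CPM in clone 4 and at 2.41 and 2.91 in clone 8. At 2h it reached 37.9 and 46.3 CPM in clone 4 and 20.6 and 18.1 in clone 8. All 4 samples at 2h lay above all 3 at 0h, with the lowest near 18 CPM against a highest of about 3 CPM. The share of all genes whose groups separate in this way is not given here, for this or later comparisons. The means of Zfp36 were 2.80 ± 0.349 CPM (SD, n = 3) at 0h and 30.7 ± 13.6 (n = 4) at 2h. The log2 fold change of 3.30 (SE 0.232), a 9.85-fold rise, had an adjusted p of 6.24e-09 in edgeR's quasi-likelihood test with Benjamini-Hochberg adjustment, the third smallest of all genes. Of all tested genes, 6.45% were called at an adjusted p under 0.05 in this comparison (3.98% higher and 2.46% lower). That background fell from 867 genes to 308 when the single 0h sample of clone 4 was left out, while Zfp36 stayed called in all 18 alternatives tried.

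By 4h, with 4OHT still present, Zfp36 stood at 4.28 and 4.44 CPM in clone 4 and at 3.19 and 3.02 in clone 8. These values rest on 7, 18, 14 and 8 counts. All 4 lay far below the 2h samples, and the fall from 2h to 4h was 7.86-fold (log2 fold change −2.98, SE 0.219, adjusted p = 1.45e-09, edgeR). The background was 38.9% of genes called. Against 0h the difference at 4h was 0.33 on the log2 scale (SE 0.245, adjusted p = 0.308, edgeR), with a background of 39.4%. Its 95% interval ran from −0.16 to 0.81, and 3 of the 4 samples at 4h lay above the highest 0h sample. With all libraries thinned to 1552022 counts, Zfp36 at 4h was called higher than at 0h (log2 fold change 1.28, adjusted p = 0.0364, edgeR), on 4 to 7 counts a library at 4h and 1 to 5 at 0h. Scaling by total counts gave −0.43.

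After the MEK inhibitor Zfp36 stood at 2.59 and 3.72 CPM in clone 4 and at 2.40 and 3.63 in clone 8, overlapping both 0h and 4h. The difference from 4h was −0.26 (SE 0.231, adjusted p = 0.426, edgeR), where 30.8% of genes were called (15.1% higher and 15.6% lower). The difference from 0h was 0.067 (SE 0.223, adjusted p = 0.880, edgeR), with a background of 11.2%. Against 2h, Zfp36 was 9.41-fold lower (log2 fold change −3.23, adjusted p = 8.33e-10, edgeR), where 2.31% of genes were called. That background of 311 genes was 119 with total-count scaling and 601 without the 4h libraries, and 157 to 203 without either clone 4 sample at 2h or any 1 rev sample. Comparisons with a group in common share those samples and are not independent of each other.

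**Figure D1:**
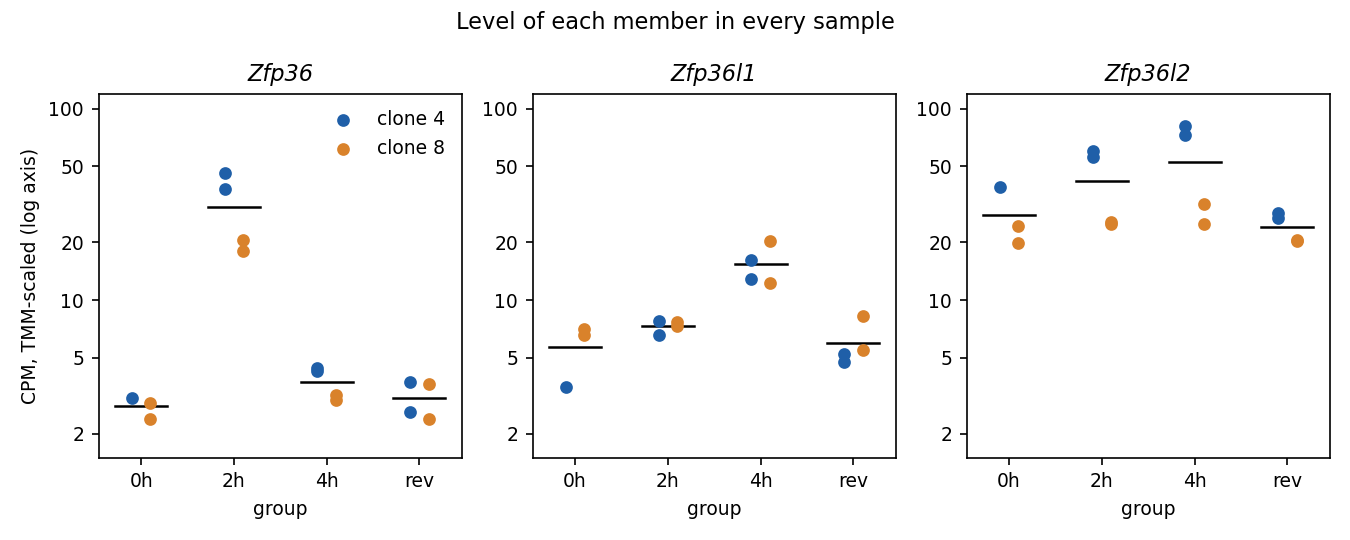
CPM of Zfp36, Zfp36l1 and Zfp36l2 on TMM-scaled libraries (log axis) in each of the 15 samples by group. Points are samples coloured by clone and black lines are group means; Zfp36 peaks at 2h (18.1 to 46.3 CPM), Zfp36l1 at 4h (12.3 to 20.4 CPM), and Zfp36l2 separates by clone.

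Zfp36l1 showed another time course: it was highest at 4h and lower again after the MEK inhibitor. At 0h it stood at 3.51 CPM in clone 4 and at 6.55 and 7.03 in clone 8. At 2h the values were 6.58 and 7.78 CPM in clone 4 and 7.33 and 7.66 in clone 8, a range that overlapped 0h. The difference of 0.47 (SE 0.211) did not pass the test (adjusted p = 0.202, edgeR), and its 95% interval was 0.055 to 0.88.

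At 4h Zfp36l1 reached 12.8 and 16.3 CPM in clone 4 and 12.3 and 20.4 in clone 8, on 21 to 66 counts. On the TMM scale every 4h sample lay above every sample of the other 3 groups. As shares of total counts the groups overlapped. The first clone 8 sample at 4h held 54 of 6209289 counts, a smaller share than 143 of 12752651 in the second at 2h. The mean rose from 5.70 ± 1.91 CPM (n = 3) at 0h to 15.4 ± 3.72 (n = 4) at 4h, a 2.90-fold change (log2 1.54, SE 0.221, adjusted p = 1.43e-05, edgeR). It was 2.09-fold higher at 4h than at 2h (log2 1.07, SE 0.197, adjusted p = 0.000209, edgeR). Scaling by total counts, which moved the median of all genes to −0.73 at 4h vs 0h, left a rise of 0.81 (adjusted p = 0.0347, edgeR). The same scaling ended the call at 4h vs 2h (0.51, adjusted p = 0.166, edgeR), where the median of all genes was −0.57. Thinning to equal total counts gave 0.75 at 4h vs 2h (adjusted p = 0.0536, edgeR).

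With the MEK inhibitor Zfp36l1 stood at 5.25 and 4.75 CPM in clone 4 and at 5.50 and 8.30 in clone 8. On the TMM scale all were below the lowest 4h sample. It fell by 1.38 on the log2 scale (SE 0.200, a 2.61-fold fall, adjusted p = 2.02e-05, edgeR) and remained called in all 18 alternatives. In this comparison 30.8% of all genes were called. The rev samples overlapped those at 0h, with a difference of 0.15 (SE 0.212, adjusted p = 0.690, edgeR). The difference between rev and 2h was −0.32 (adjusted p = 0.572, edgeR).

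One limit applies to the level of Zfp36l1. The opposite-strand lincRNA Gm26669 covers 1672 of its 2990 exonic bases (55.9%), and how the counting treated strand is not given in the sources used here. Gm26669 itself was given 0 to 2 counts per library, 10 in all. Overlap was smaller for Zfp36 (3.6% of 3470 exonic bases, shared with Gm44710) and Zfp36l2 (3.0% of 3530, shared with AC132455.1).

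Zfp36l2 had the highest mean CPM of the members in every group and was the one that differed most between the clones. At 0h it stood at 39.1 CPM in clone 4 and at 24.3 and 20.0 in clone 8. At 2h it stood at 60.04 and 56.1 CPM in clone 4 and at 25.0 and 25.6 in clone 8. Clone 4 was thus above its single 0h sample at 2h, while clone 8 stayed close to its own 0h values. The difference between 2h and 0h, 0.35 (SE 0.164), did not pass the test (adjusted p = 0.219, edgeR).

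At 4h Zfp36l2 was at 72.7 and 81.2 CPM in clone 4 and at 25.0 and 31.7 in clone 8. With the clone as a term in the model it was 1.58-fold higher at 4h than at 0h (log2 0.66, SE 0.168, adjusted p = 0.00404, edgeR), although the groups overlapped. Its direction depended on scaling: with total counts the difference was −0.070 (adjusted p = 0.850, edgeR), beside a median of all genes of −0.73. Without the clone term it was 0.91 but not called (adjusted p = 0.152, edgeR). The difference between 4h and 2h was 0.30 (SE 0.151, adjusted p = 0.119, edgeR), and it was called without the first clone 8 sample at 4h (0.44, adjusted p = 0.0262, edgeR).

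After the MEK inhibitor Zfp36l2 stood at 27.0 and 28.6 CPM in clone 4 and at 20.7 and 20.4 in clone 8. It fell by 0.97 from 4h (SE 0.155, a 1.95-fold fall, adjusted p = 7.41e-05, edgeR). The fall was not called with total-count scaling (−0.60, adjusted p = 0.0882, edgeR) or without the clone term (−1.11, adjusted p = 0.0780, edgeR). Zfp36l2 was also 1.59-fold lower in rev than at 2h (log2 −0.66, SE 0.151, adjusted p = 0.0187, edgeR). Leaving out any 1 of the 4 clone 4 samples of these 2 groups ended that call (−0.54 to −0.65, adjusted p 0.0815 to 0.124, edgeR), as did total-count scaling (−0.80, adjusted p = 0.168, edgeR). Against 0h, rev differed by −0.31 (SE 0.162, adjusted p = 0.231, edgeR).

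**Figure D2:**
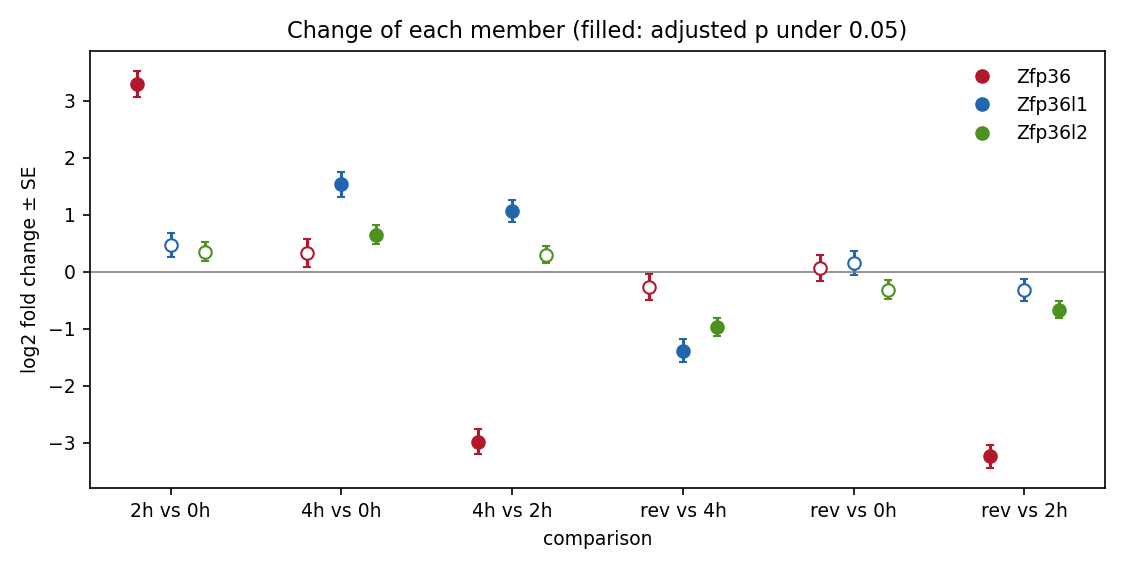
Log2 fold change (y axis, ± SE of the model) of the 3 members in 6 comparisons, from the fit with group and clone over all 15 samples. Filled points had an adjusted p under 0.05 in edgeR's test; Zfp36 moves by about 3 units up at 2h and down by 4h, Zfp36l1 and Zfp36l2 are higher at 4h vs 0h (0.66 for Zfp36l2, a change that reverses to −0.070 with total-count scaling) and lower in rev vs 4h.

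The clones differed in the level and in part of the response of Zfp36l2. Averaged over groups, it was 1.98-fold lower in clone 8 than in clone 4 (log2 −0.99, SE 0.113, adjusted p = 2.60e-06, edgeR), where 18.5% of genes differed between clones. Clone 8 was below clone 4 within each of the 4 groups. Zfp36 was 1.46-fold lower in clone 8 (log2 −0.54, SE 0.154, adjusted p = 0.0159, edgeR). That call was lost without the first clone 8 sample at 2h (−0.47, adjusted p = 0.0591, edgeR) and without the second (−0.44, adjusted p = 0.0600, edgeR). The difference for Zfp36l1, 0.35 (SE 0.146), pointed the other way and did not pass (adjusted p = 0.103, edgeR). It was called without the first clone 8 sample at 4h (0.43, adjusted p = 0.0375, edgeR).

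From 4h to rev, Zfp36l2 fell by 1.47 on the log2 scale in clone 4 (SE 0.144) and by 0.46 in clone 8 (SE 0.145). The difference between these responses, 1.01 (SE 0.203), was called (adjusted p = 0.00737, edgeR), with 2.8% of genes called in the same test. The call was lost without the first clone 8 sample at 4h (0.86, adjusted p = 0.0606, edgeR), with total-count scaling (0.93, adjusted p = 1.00, edgeR) and with thinning (1.00, adjusted p = 0.171, edgeR). No member was called for a clone difference in 2h vs 0h, where 0.23% of genes were, or in 4h vs 2h, where 3.14% were, by edgeR or by DESeq2. At an unadjusted p under 0.05 edgeR would have passed 2 of the 3 in the first (Zfp36 and Zfp36l1) and 0 in the second. Of all 13451 genes, 631 passed at that level in the first and 1987 in the second. For Zfp36 the rise at 2h was 3.77 in clone 4 (SE 0.310) and 2.87 in clone 8 (SE 0.230), a difference of −0.90 (SE 0.347, adjusted p = 0.843, edgeR). At 4h vs 0h Zfp36l1 rose by 2.07 in clone 4 (SE 0.336, adjusted p = 0.000170, edgeR) and by 1.25 in clone 8 (SE 0.255, adjusted p = 0.00128, edgeR). Values of clone 4 against 0h rest on 1 sample at 0h, whose spread is assumed to be like that of the other groups.

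**Figure D3:**
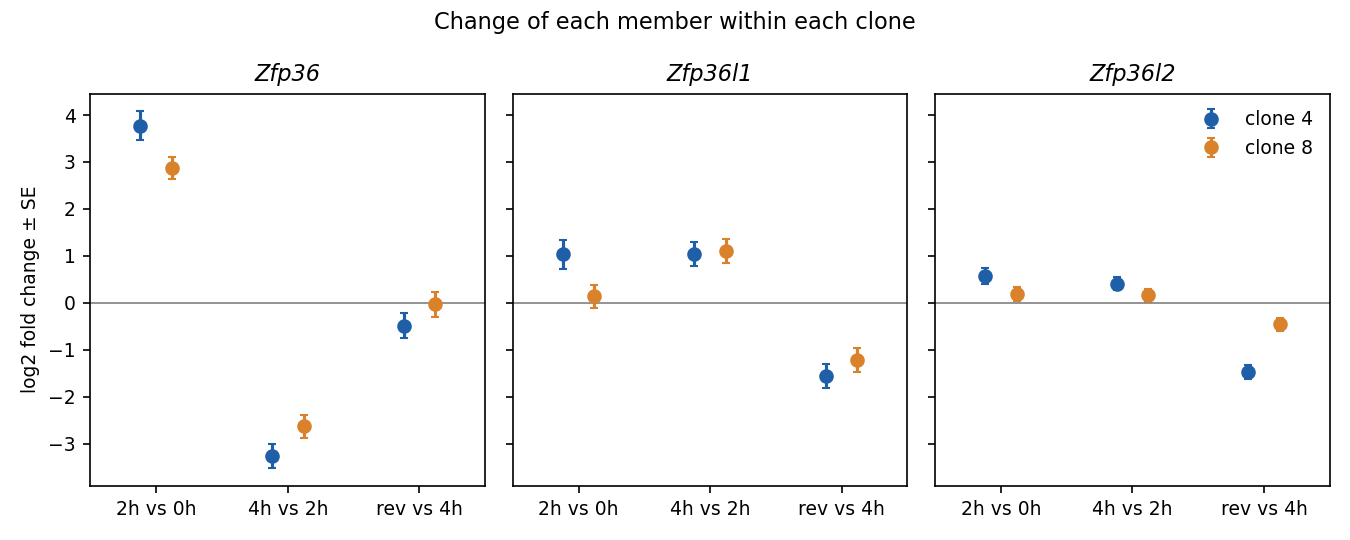
Log2 fold change (y axis, ± SE) of each member within clone 4 and clone 8 for the 3 successive steps, from the fit in which each clone has its own group means. The point estimates of the clones lie on the same side of 0 for each member and step shown. In clone 8, however, Zfp36 in rev vs 4h (−0.032, SE 0.264) and Zfp36l1 in 2h vs 0h (0.145, SE 0.246) lie within 1 SE of 0. The difference between clones was called for Zfp36l2 in rev vs 4h (−1.47 and −0.46).

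Levels of different genes can be set side by side per kilobase of exon, here taken over all annotated transcripts. On that scale Zfp36l2 was the highest member in every group. The exonic bases of Zfp36 (3470, over 2 transcripts) fill its whole annotated span, chr7:28376784-28380253. A shorter length would raise Zfp36, so its order against Zfp36l2 (1 transcript) at 2h depends on the length used. So does its separation from Zfp36l1 at 0h and in rev. In clone 4 at 0h the counts were 57 for Zfp36 and 65 for Zfp36l1. At 0h the order was Zfp36l2 (7.88 ± 2.84 CPM per kilobase), Zfp36l1 (1.90 ± 0.638) and Zfp36 (0.806 ± 0.101), with no overlap between neighbours. At 2h Zfp36 (8.85 ± 3.92) stood second, and its range of 5.22 to 13.3 overlapped that of Zfp36l2 (11.8 ± 5.38, range 7.09 to 17.01). Zfp36l1 was then the lowest at 2.45 ± 0.180. At 4h Zfp36l1 (5.16 ± 1.25) was again second, between Zfp36l2 (14.9 ± 8.05) and Zfp36 (1.08 ± 0.211), and the highest Zfp36l1 sample (6.81) lay just under the lowest Zfp36l2 sample (7.09). In rev the values were 6.85 ± 1.19, 1.99 ± 0.534 and 0.889 ± 0.198, close to those at 0h. Dividing by only those exonic bases that no other gene shares left the order of the 3 group means as it was, with Zfp36l1 at up to 11.7 CPM per kilobase at 4h. Within clone 8 at 4h, however, Zfp36l1 then stood above Zfp36l2, at a mean of 12.4 against 8.28 CPM per kilobase.

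Within a library, Zfp36 took 7.89% ± 1.60 (SD, n = 3) of the family's counts at 0h and 38.1% ± 3.01 (n = 4) at 2h. The share was 5.62% ± 1.57 at 4h and 9.27% ± 1.68 after the MEK inhibitor (n = 4 each). These shares, and the ratios between members, do not depend on how libraries are scaled. The log2 ratio of Zfp36 to Zfp36l1 was 2.91 higher at 2h than at 0h and moved by −3.94 from 2h to 4h, with no overlap between groups in either case. Its ratio to Zfp36l2 moved by 2.81 and −3.17 in the same comparisons, again without overlap. At 4h the ratio of Zfp36 to Zfp36l1 differed by −1.03 from that at 0h, and in rev it was 1.06 above that at 4h, both without overlap. The ratio of Zfp36l1 to Zfp36l2 overlapped between groups in all 5 comparisons. In two-sided exact permutation tests the smallest p the design allows, 0.0571 with 3 against 4 samples and 0.0286 with 4 against 4, was reached in the 6 comparisons without overlap. Adjusted over the 15 tests, the smallest exact permutation p was 0.143, and with these group sizes no adjusted value could go below 0.0571.

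**Figure D4:**
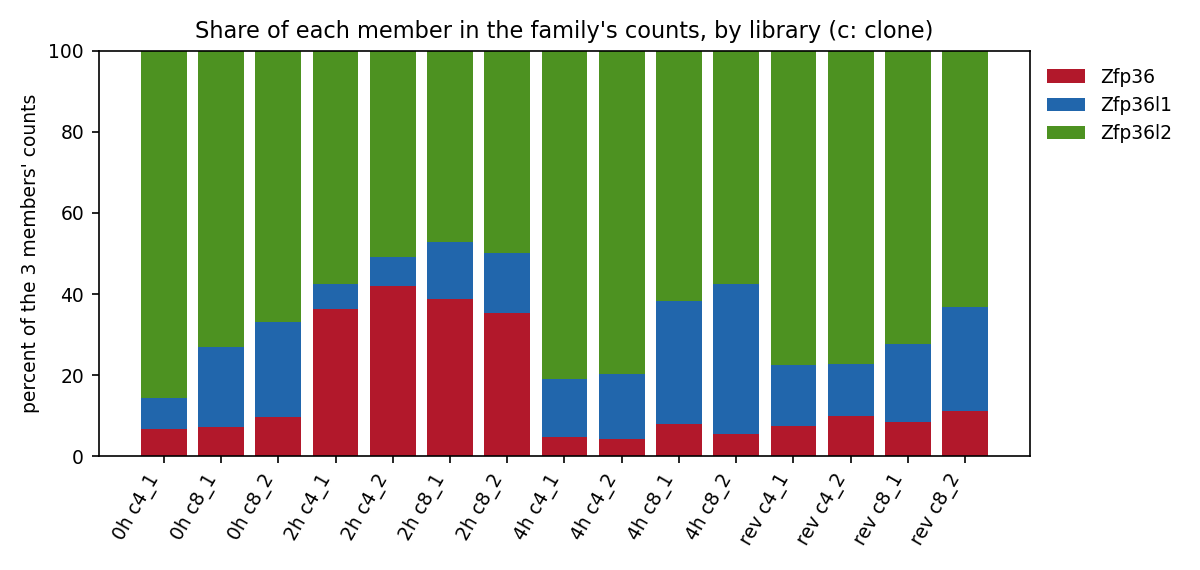
Percent of the summed counts of the 3 members (y axis) taken by Zfp36, Zfp36l1 and Zfp36l2 in each of the 15 libraries. Zfp36 takes 35.3 to 42.0% in the 4 libraries at 2h and at most 11.2% in every other library.

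The paralog Zfp36l3, a rodent gene on the X chromosome known from placenta, had 0 to 15 counts per library, 68 in all, and the pseudogene Zfp36l1-ps had 2 counts in all. Neither entered the test.

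The genes most like each member in pattern were ranked by Pearson's r of log2 CPM over the 15 samples, a description in which all genes share libraries, groups and depth. For Zfp36 they were Fos (0.93), a subunit of AP-1, Ier2 (0.93), an immediate early gene, Hes1 (0.93), a transcriptional repressor of the Notch pathway, Dusp1 (0.91), a phosphatase of MAP kinases, and Ccnt1 (0.89), the cyclin of the elongation factor P-TEFb. Fos rose by 5.61 at 2h and Dusp1 by 2.29, and from 2h to 4h they changed by −3.61 and −2.51. For Zfp36l1 they were Ucp2 (0.94), a mitochondrial carrier, Ewsr1 (0.92), an RNA-binding protein, Zscan4a (0.92), known from the transient Zscan4-positive state of stem cells, Tead1 (0.92), the DNA-binding partner of YAP, and Zfp264 (0.92), a zinc finger gene. Of these, Zscan4a had a log2 fold change of 3.47 between 0h and 4h, and Tead1 one of 1.55. For Zfp36l2 they were Zmat2 (0.92), Grm6 (0.91), Cap1 (0.89), Gm38357 (0.89) and Txn2 (0.88). Ranked by Spearman's rho instead, 2, 1 and 1 of the 5 genes were the same. Between the members themselves r was −0.023 for Zfp36 and Zfp36l1, 0.38 for Zfp36 and Zfp36l2, and 0.34 for Zfp36l1 and Zfp36l2 (n = 15).

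Genes that work with the family were read from the same fit. At 2h 2 of the 14 genes of deadenylation were called, both higher, where 3.98% of all genes were called higher. They were Tob1, an adaptor that links mRNA-bound proteins to CCR4-NOT (16.2 ± 1.38 CPM at 0h and 31.6 ± 5.98 at 2h, log2 1.00, adjusted p = 0.00400, edgeR), and Cnot6, a catalytic subunit (50.7 ± 3.003 and 77.3 ± 13.9 CPM, log2 0.59, adjusted p = 0.00333, edgeR). With total-count scaling neither was called, and without the 4h libraries 3 genes of the list were called higher. From 0h to 4h 5 rose and 1 fell, against 20.5% and 18.9% of all genes. Total-count scaling gave 0 higher and 7 lower. Under that scaling the median of all genes was −0.73, and 7.11% of all genes called were higher. The same shift applies to the total-count results of the lists below. With TMM scaling those higher were the CCR4-NOT subunits Cnot2 (log2 0.67, adjusted p = 0.000414, edgeR), Cnot6l (0.57), Cnot3 (0.38) and Cnot1 (0.34), and Pan3 of the PAN2-PAN3 deadenylase (0.61, adjusted p = 0.000474, edgeR). The gene called lower was Tob2 (−0.64, adjusted p = 0.00728, edgeR). In rev vs 4h Tob2 was higher (0.51, adjusted p = 0.0253, edgeR) and Cnot3 lower (−0.49, adjusted p = 0.000515, edgeR), the 2 called genes of the list, where 15.1% of all genes were higher and 15.6% lower. Total-count scaling gave 3 higher and 0 lower there, so the call of Cnot3 was lost. Under that scaling the median of all genes in rev vs 4h was 0.45, and 88.0% of all genes called were higher.

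Of 12 genes of decapping and 5′ to 3′ decay, none was called at 2h by edgeR or DESeq2. An unadjusted edgeR p under 0.05 was found for 3 of them, beside 2842 of all 13451 genes. At 4h vs 0h 3 were higher and 2 lower, or 0 higher and 6 lower with total-count scaling. The 5 called of 12 stand beside 39.4% of all genes called. Patl1, a scaffold between deadenylation and decapping, was higher (0.72, adjusted p = 0.000166, edgeR), as were Dcp1a (0.31) and Eif4enif1 (0.23), and Lsm1, a subunit of the ring that binds shortened tails, was lower (−0.62, adjusted p = 0.00252, edgeR). Both moved the other way in rev vs 4h, Patl1 by −0.52 (adjusted p = 0.00196, edgeR) and Lsm1 by 0.61 (adjusted p = 0.00260, edgeR), and the helicase Ddx6 was higher there by 0.32 (adjusted p = 0.0107, edgeR). With total-count scaling none of the list was called lower in rev vs 4h, so the call of Patl1 was lost. Lsm14b, a P-body protein, was lower at 4h vs 0h (−0.37, adjusted p = 0.0136, edgeR).

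Other RNA-binding regulators of mRNA stability were tested for 11 of 12 genes, Zc3h12a being too low. At 2h, where 3.98% of all genes were called higher, 2 of them were: Rc3h1 (0.60, adjusted p = 0.00866, edgeR) and Rc3h2 (0.62, adjusted p = 0.0476, edgeR), which encode the stem-loop binding proteins Roquin and its paralog. Neither was called with total-count scaling. At 4h vs 0h, where 20.5% of all genes were higher, 4 were called, all higher, against 0 higher and 2 lower with total-count scaling. They included Hnrnpd, an AU-rich element binder (0.29, adjusted p = 0.0133, edgeR), Celf1, a binder of GU-rich elements (0.41, adjusted p = 0.000576, edgeR), and Elavl1, the AU-rich element binder HuR, known to stabilise mRNAs (0.34, adjusted p = 0.0104, edgeR). In rev vs 4h Rc3h1 (0.36, adjusted p = 0.0352, edgeR) and Tia1, a translational repressor (0.41, adjusted p = 0.0454, edgeR), were higher. DESeq2 called neither. Of the 2 called lower, Celf1 fell by 0.22 (adjusted p = 0.0327, edgeR), a call lost with total-count scaling.

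Of the 11 genes for the p38-MK2 branch and 14-3-3 proteins, none was called at 2h by edgeR. DESeq2 called 1, and edgeR without the 4h libraries called 2. An unadjusted edgeR p under 0.05 was found for 3 of the 11, beside 2842 of all 13451 genes. At 4h vs 0h 2 were higher and 2 lower (0 higher and 5 lower with total-count scaling), beside 20.5% and 18.9% of all genes. Mapkapk3, a paralog of MK2, went from 33.5 ± 3.75 CPM at 0h to 13.8 ± 6.48 at 4h (log2 −1.24, adjusted p = 2.01e-05, edgeR). It was at 23.5 ± 1.30 in rev, higher than at 4h by 0.80 (adjusted p = 0.00135, edgeR). Mapk14, which encodes p38α, was lower at 4h vs 0h (−0.58, adjusted p = 0.000323, edgeR). The 14-3-3 genes Ywhaz (0.42, adjusted p = 0.00413, edgeR) and Ywhag (0.28, adjusted p = 0.0104, edgeR) were higher, and Ywhag fell by 0.30 in rev vs 4h (adjusted p = 0.00454, edgeR), a call lost with total-count scaling and with no low-count filter.

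The last list held 24 genes known from other cells as AU-rich targets of the family. TATTTAT occurred in the 3′ UTR of 23 of them (95.8%), against 27.6% of 21007 genes, and Myc was the one without. A high share follows from choosing known AU-rich targets and is no result of these data. UTR length was not matched here, with a median of 1305 bases in the list and 961 over all genes. Those not tested for low counts were Tnf, Csf2, Il2, Il6, Cxcl1, Cxcl2 and Dll4, which left 17. Several are immediate early genes themselves, and the list was chosen with results of these data known, so its direction is no independent evidence. At 2h 6 were called higher and 1 lower (4 and 0 with total-count scaling, 8 and 1 without the 4h libraries), where 3.98% of all genes were higher and 2.46% lower. The median log2 fold change was 0.41, against 0.0067 over all genes. Fos rose from 0.668 ± 0.476 to 33.5 ± 13.0 CPM (log2 5.61, adjusted p = 5.78e-05, edgeR). Myc rose from 2.44 ± 0.770 to 45.5 ± 14.7 (3.93, adjusted p = 0.00345, edgeR), and Dusp1 from 12.9 ± 2.88 to 79.1 ± 44.8 (2.29, adjusted p = 0.00242, edgeR). The others called higher were Ier3 (1.47), Pim1 (1.13) and Plk3 (0.94), and the one called lower was Ccnd1 (−0.55).

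By 4h these 3 genes had parted. Fos was at 2.90 ± 2.18 CPM and Dusp1 at 13.9 ± 8.85, with changes from 2h of −3.61 (adjusted p = 4.10e-05, edgeR) and −2.51 (adjusted p = 8.52e-05, edgeR). Myc was at 55.2 ± 45.7 CPM, a difference from 2h of 0.032 (adjusted p = 0.965, edgeR). Against 0h, 9 of the 17 were higher at 4h and 4 lower (6 and 6 with total-count scaling), beside 20.5% and 18.9% of all genes. The median was 0.58, against 0.026 over all genes. With total-count scaling it was −0.13, against −0.73 over all genes. Over the 21 genes tested with no low-count filter it was −0.00016, against −0.018 over all genes. Among those lower were Bcl2 (−1.66), Mcl1 (−0.81) and Ccnd1 (−0.34). Klf2, a transcription factor of naive pluripotency, rose from 4.45 ± 1.25 CPM at 0h to 33.4 ± 14.8 at 4h (2.97, adjusted p = 5.91e-10, edgeR). Ptgs2, which encodes cyclooxygenase, went from 0.291 ± 0.159 to 4.57 ± 4.80 CPM (3.62, adjusted p = 0.00230, edgeR), with an SD above its mean at 4h. Ptgs2 and Fos (0.668 CPM) were low at 0h and passed the low-count filter through the later groups. The calls and medians of the 17 include genes that entered in this way. Klf2 and Nanog belong to the network of naive pluripotency, for which the summed level of 6 markers is given above.

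In rev vs 4h 1 of the 17 was called higher and 6 lower, against 15.1% and 15.6% of all genes. Total-count scaling gave 1 and 4, and the median of −0.35 became 0.064, beside a median of all genes of 0.45. Klf2 fell by 2.38 (adjusted p = 2.71e-09, edgeR) to 6.31 ± 2.31 CPM. Nanog, a core pluripotency factor, fell by 2.01 (adjusted p = 0.00360, edgeR) from 50.4 ± 39.0 to 11.2 ± 2.76 CPM. Pim1, a kinase gene, fell by 1.58 (adjusted p = 6.12e-07, edgeR) from 37.2 ± 10.6 to 12.2 ± 1.96. The others called lower were Notch1 (−0.72), Plk3 (−0.45) and Ccnd1 (−0.35), and the one called higher was Mcl1, an anti-apoptotic gene (0.55).

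**Figure D5:**
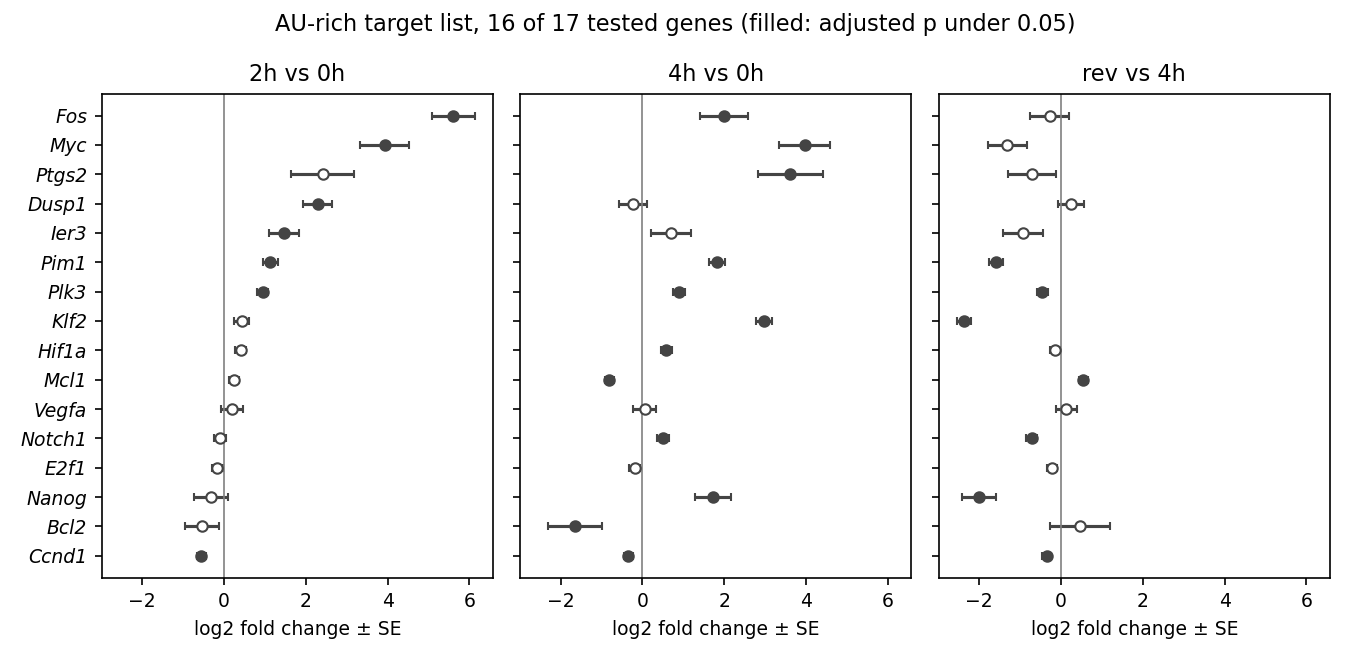
Log2 fold change (x axis, ± SE) of 16 of the 17 tested genes of the AU-rich target list at 2h and at 4h, both against 0h, and in rev vs 4h, ordered by their change at 2h. Filled points had an adjusted p under 0.05 in edgeR's test: among the genes drawn 6 were higher and 1 lower at 2h, 9 higher and 3 lower at 4h, and 1 higher and 6 lower in rev vs 4h (over all 17 with total-count scaling, 4 and 0, 6 and 6, and 1 and 4).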

How the data were processed

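RNA was sequenced from 15 EpiLC samples after ribosomal RNA depletion, per the labels' protocols. The authors deposited 1 table of whole-number read counts, not normalized. Per the submitters' processing notes the build was mm10 and the tools included bcl2fastq 2.19.1 and STAR 2.5.3a. The counting tool, annotation and strand handling are not given in the sources used here. The authors discarded 1 further 0h sample in quality control, per the series' design text, and it was not analysed here.

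Genes were matched by Ensembl identifier (52403 of 52636 rows had a symbol). Annotation, exonic lengths and 3′ UTRs came from GENCODE M21 (GRCm38) and promoters from RefSeq (GRCm38.p6). Analysis used R 4.3.3 and edgeR 4.0.16: filterByExpr by group (at least 10 counts, with a total of 15 or more), TMM scaling, and quasi-likelihood F tests with robust estimation and the current (non-legacy) deviance. The model held group and clone over all 15 samples. Benjamini-Hochberg adjustment ran over 13451 genes, and genes were called at an adjusted p under 0.05. Clone differences came from a fit in which each clone had its own group means. The SE is the log2 fold change divided by the square root of F, and 95% intervals are normal approximations. Ratios within libraries used counts plus 0.5 and exact permutation tests (scipy 1.17.1). On simulated data with 200 genes changed by a log2 of 2 among 13451, 199 were found in 2h vs 0h with 13 false calls, and 190 in 4h vs 0h with 11. Alternatives were DESeq2 1.42.0, other scalings, filters, thinning, models and leaving out each library.

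The members and the gene lists were chosen with earlier results of these data known. Named were the members, Zfp36l3, up to 3 called genes per list with the largest change at 2h or 4h against 0h or in rev vs 4h (mean of at least 1 CPM), the 5 genes most like each member, and Spry4, Dusp6 and Egr1. Other genes named were chosen after their values were seen. Primitive endoderm (2.26 to 5.16 CPM summed), mesendoderm (2.81 to 11.6) and fibroblast (0.377 to 15.4) markers were low in all samples. Some genes of the lists are counted but not reported here by name.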

Additional observations from a re-analysis of the deposited data

Results flagged for a closer look

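The fall of Zfp36l2 from 4h to rev differed between the clones by a test of the difference itself. On the log2 scale the fall in clone 8 was smaller than that in clone 4 by 1.01 (SE 0.203, adjusted p = 0.00737, edgeR), with changes of −0.46 and −1.47. The samples behind it were 72.7 and 81.2 CPM at 4h and 27.0 and 28.6 in rev for clone 4, and 25.0 and 31.7 at 4h and 20.7 and 20.4 in rev for clone 8. Clone 4 lay above clone 8 in both groups. Over its 15 alternatives the difference ran from 0.86 to 1.21 and was called in 12, the exceptions being total-count scaling, thinning and leaving out the first clone 8 sample at 4h. In none of the 9 sets of 4 values (3 members in the 2h, 4h and rev groups) did a sample lie apart from the others by Dixon's ratio of gap to range.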

How the results depend on the processing

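Over members, comparisons other than rev vs 2h, and settings, 462 values were refitted. Of these, 447 kept the side of the threshold, 11 lost the call and 3 gained one. The other 1 changed sign and lost its call. Changes of sign between 2 fits without a call are within the 447. Zfp36 in 4h vs 0h, for example, was 0.33 in the main fit and −0.43 with total-count scaling. In rev vs 2h 37 of 42 kept the side of the threshold and 5 lost the call, all of Zfp36l2. Total-count scaling reversed Zfp36l2 in 4h vs 0h (−0.070). It ended the calls of Zfp36l1 in 4h vs 2h (0.51), Zfp36l2 in rev vs 4h (−0.60) and rev vs 2h (−0.80), Zfp36 between clones (−0.51) and the clone difference of Zfp36l2 in rev vs 4h (0.93). The last was also lost with thinning (1.00). Thinning ended Zfp36l1 in 4h vs 2h (0.75) and called Zfp36 in 4h vs 0h (1.28). Without the clone term Zfp36l2 lost its calls in 4h vs 0h (0.91) and rev vs 4h (−1.11). The cause of these changes was not tested.

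Genes called in 2h vs 0h numbered 867, and 267 with total-count scaling, 1305 with no low-count filter, 1499 once mitochondrial genes and the 20 most abundant were left out, 427 without the clone term, 255 with thinning, 1327 with the legacy deviance and 1529 without the 4h libraries. In rev vs 0h 1500 became 770 with total-count scaling, 2296 without abundant genes, 2934 with only the groups compared, 793 without the clone term, 404 with thinning and 2304 without the 4h libraries. Thinning gave 2425 of 5300 in 4h vs 0h, 2358 of 5237 in 4h vs 2h and 1723 of 4140 in rev vs 4h. Between clones 2492 became 766 with total-count scaling and 902 with thinning. The clone differences of 31, 422 and 377 genes became 2, 147 and 45 with total-count scaling and 3, 96 and 103 with thinning. The first became 56 with no filter, and the others 252 and 225 with DESeq2. The legacy deviance, the fit without the 4h libraries and the comparison of rev with 2h were chosen after seeing the data.

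Leaving out 1 library gave 308 (without the clone 4 sample at 0h) to 1077 genes in 2h vs 0h and 511 (without the same sample) to 1299 in rev vs 0h. The clone differences ranged from 2 to 24, 278 to 403 and 195 to 354 genes. Zfp36 between clones ranged from −0.66 to −0.44, Zfp36l1 between clones from 0.22 to 0.43, Zfp36l2 in 4h vs 2h from 0.17 to 0.44 and its clone difference in rev vs 4h from 0.86 to 1.21.

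Replicate numbers were shared within each clone, but deviations of same-numbered samples correlated at −0.19 to 0.26, so the numbers were not taken to pair samples. With a replicate block Zfp36 in 2h vs 0h was 3.23 (adjusted p = 3.32e-08, edgeR), Zfp36l1 in 4h vs 0h 1.46 and Zfp36l2 in rev vs 4h −0.96, and no call of a member changed. Depth limits Zfp36 most, at 7 to 18 counts a library at 4h.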

Other observations

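Some AU-rich targets had not returned to the 0h level in rev, while the differences of the 3 family members from 0h did not pass the test. Of the 17 tested, 5 were higher in rev than at 0h and 3 lower (3 and 2 with total-count scaling, 6 and 4 without the 4h libraries), where 11.2% of all genes were called. These genes were chosen after their values were seen. Myc was at 18.4 ± 4.72 CPM in rev against 2.44 ± 0.770 at 0h (log2 2.65, adjusted p = 0.0157, edgeR). Ptgs2 was at 2.30 ± 0.320 against 0.291 ± 0.159 (2.91, adjusted p = 0.0231, edgeR). Klf2 (0.59, adjusted p = 0.0445), Plk3 (0.43, adjusted p = 0.0439) and Hif1a (0.44, adjusted p = 0.0331) were higher by less in the same edgeR test. Those lower included Ccnd1, which encodes cyclin D1 (−0.69, adjusted p = 0.000332, edgeR), and E2f1 (−0.42, adjusted p = 0.0419, edgeR). Dusp1, by contrast, was at 14.2 ± 1.95 CPM in rev and 12.9 ± 2.88 at 0h, a difference of 0.015 (adjusted p = 0.982, edgeR).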
